A study of Mus musculus with 2 samples.

Results

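The let-7 family was followed in microRNA sequencing libraries of embryonic mouse kidney, taken on embryonic day 16.5. Its 10 measured genes, Mirlet7a-1, Mirlet7a-2, Mirlet7b, Mirlet7c-1, Mirlet7c-2, Mirlet7d, Mirlet7f-2, Mirlet7g, Mirlet7i and Mir98, were taken by symbol from the 1973 microRNA gene rows of each deposited table. The series holds 2 libraries of 1 group. They are biological replicates 2 and 1 of B6NCrl kidney tissue from healthy embryos, with males and females pooled. Replicate 2 came from 41 embryos, and the labels used here state no number for replicate 1. Both libraries carry the same donor record, so the spread between them may be partly technical. No treatment, mutation or other age was measured, and whole kidneys mix many cell types, so that fewer cells of a type and less RNA per cell cannot be told apart.

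let-7 microRNAs are known for rising as tissues mature. They repress messenger RNAs through their seed, the bases at positions 2 to 8 of the mature strand, and known targets include Lin28a, Lin28b, Hmga2 and Igf2bp1. LIN28 proteins in turn bind let-7 precursors and block their maturation, which keeps let-7 low in stem and progenitor cells. The embryonic kidney still holds nephron progenitors at this stage, and LIN28 and let-7 are known to act on how long these persist in the mouse.

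The mature 5p strands, from RefSeq on GRCm38.p6, are shown first because reads of a 5p strand cannot tell apart the genes that share it. All 10 are 22 nt long, carry the seed GAGGUAG, shown in capitals, and make up 8 distinct sequences. RefSeq has a mature 5p entry for 9 of the 10 genes, and for Mirlet7a-2 the let-7a-5p sequence was found in its RefSeq hairpin.
let-7a-5p, from Mirlet7a-1 and Mirlet7a-2: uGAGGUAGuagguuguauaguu
let-7c-5p, from Mirlet7c-1 and Mirlet7c-2: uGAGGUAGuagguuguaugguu
let-7f-5p, from Mirlet7f-2 and Mirlet7f-1: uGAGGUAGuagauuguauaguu
let-7b-5p: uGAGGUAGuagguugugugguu
let-7d-5p: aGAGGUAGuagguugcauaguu
let-7g-5p: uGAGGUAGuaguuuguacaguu
let-7i-5p: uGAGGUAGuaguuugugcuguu
miR-98-5p: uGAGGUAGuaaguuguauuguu

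Counted from the 5′ end, let-7c-5p differs from let-7a-5p by A19G, let-7f-5p by G12A and let-7b-5p by A17G and A19G. Relative to let-7a-5p, let-7d-5p carries U1A and U16C, let-7g-5p G12U and U18C, and miR-98-5p G11A and A19U. let-7i-5p is farthest from let-7a-5p, with G12U, A17G, U18C and A19U. Over the 28 pairs of distinct sequences the strands differ at 1 to 6 positions, and at a single position in 3 pairs. None of these differences lies in the seed.

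The 10 genes fall into 5 whose 5p sequence occurs in no other RefSeq mouse hairpin and 5 whose 5p sequence also occurs in another one. Mirlet7b, Mirlet7d, Mirlet7g, Mirlet7i and Mir98 form the first set. In the second, Mirlet7a-1 pairs with Mirlet7a-2 and Mirlet7c-1 with Mirlet7c-2, while Mirlet7f-2 pairs with Mirlet7f-1, which was not analysed here. A read that maps to several places is in no gene row of the deposited tables. Reads of this kind numbered 3718198 in replicate 2 and 3323410 in replicate 1, or 25.3% and 28.0% of all reads of these libraries, and how many of them are let-7 is unknown.

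Counts on the strand of the gene are given as reads per 1000000 such reads in gene rows (CPM). These rows held 7128703 reads in replicate 2 and 5317669 in replicate 1, so that 3 reads, the upper limit a count of 0 allows, equal 0.421 and 0.564 CPM. CPM was not corrected for length, as the 5p strands have one length and the 3p strands have 21 or 22 nt. Each row counts reads per gene, so reads of the 5p and 3p strands are not told apart. All 8 genes of the kidney list reached 1 CPM in both libraries, the level called detected below. They are the Hox-locus genes Mir10a, Mir10b, Mir196a-1, Mir196a-2 and Mir196b, and Mir30a, Mir30d and Mir30e of the miR-30 family. Their summed level was 275115 CPM in replicate 2 and 294298 CPM in replicate 1. Most of it came from Mir10a and Mir10b, with means of 154681 and 61412 CPM over both libraries. The summed level was 494 CPM in replicate 2 and 477 CPM in replicate 1 for the renal tubule list, 26770.4 and 26285 CPM for epithelium, 51554 and 52632 CPM for endothelium (Mir126a) and 36005 and 25617 CPM for smooth muscle (Mir143 and Mir145a). For pancreas (Mir375) it was 537 CPM in replicate 2 and 867 CPM in replicate 1. The sum for striated muscle was 323 CPM in replicate 2 and 299 CPM in replicate 1, for blood 845 and 654 CPM, and for liver 171 and 210.1 CPM. Of the brain list of 6 genes, 5 had rows, with summed levels of 1.964 CPM in replicate 2 and 3.20 CPM in replicate 1. All of these sums leave out reads that map to several places, which copies of a microRNA can give. A low sum therefore does not show absence. Relative to their level, the smooth muscle, blood, liver, pancreas and brain sums differed most between the libraries, with no limit set for a difference. The part of these sums in the comparison of libraries was not tested.

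The whole family held 990021 reads in replicate 2 and 742590 in replicate 1. This was 13.89% of the reads in gene rows in replicate 2 (exact Clopper-Pearson 95% interval 13.86 to 13.91) and 13.96% in replicate 1 (13.94 to 13.99). Intervals cover counting error only. If no read that maps to several places were let-7, the family would hold 9.13% and 8.59% of the sum of these reads and the reads in gene rows, and if all were, 43.4% and 47.1%. With unmapped reads and reads outside genes set aside, the share of the family is known only within these bounds.

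Mirlet7g was the highest member, at 55859 CPM in replicate 2 and at 55526 CPM in replicate 1. It ranked 4 among all gene rows in both libraries. Mirlet7i followed at 50261 CPM in replicate 2 and at 54343 CPM in replicate 1, ranking 6 and 5. These 2 genes together held 77.5% ± 1.60 of the family's reads in gene rows (SD, n = 2), against 22.5% ± 1.60 for the 8 others. Reads that map to several places are not in these shares.

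Mirlet7g (ENSMUSG00000065440) lies at chr9:106178840-106178927 on the plus strand, in an intron of Wdr82, a gene of histone methyltransferase complexes. Mirlet7i (ENSMUSG00000065406) lies at chr10:122985640-122985724 on the minus strand, in an exon of the transcribed pseudogene D630033A02Rik. Both genes stand alone, with no other microRNA gene row within 10 kb on their strand. Positions and gene models come from GENCODE M21 (GRCm38, named mm10 in the text beside the deposited tables).

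Mirlet7d came next, at 16691 CPM in replicate 2 and at 14369 CPM in replicate 1. Mir98 stood at 8398 CPM in replicate 2 and at 8528 CPM in replicate 1. Mirlet7b, the lowest gene with a 5p sequence of its own, had 3966 CPM in replicate 2 and 3208 CPM in replicate 1. All 5 genes with a 5p sequence of their own stood above the other 5 in both libraries.

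Mirlet7f-2 was the highest of the genes with a shared 5p sequence, at 2923 CPM in replicate 2 and at 3085 CPM in replicate 1. Both copies of let-7a lay lower, with Mirlet7a-1 at 252 CPM in replicate 2 and at 204 CPM in replicate 1 and Mirlet7a-2 at 228 and 166 CPM. The copies of let-7c were the lowest, with Mirlet7c-2 at 167 CPM in replicate 2 and at 117 CPM in replicate 1 and Mirlet7c-1 at 135 and 99.3 CPM. These levels count only reads placed at 1 copy, so they are not the levels of let-7a, let-7c or let-7f.

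**Figure D1:**
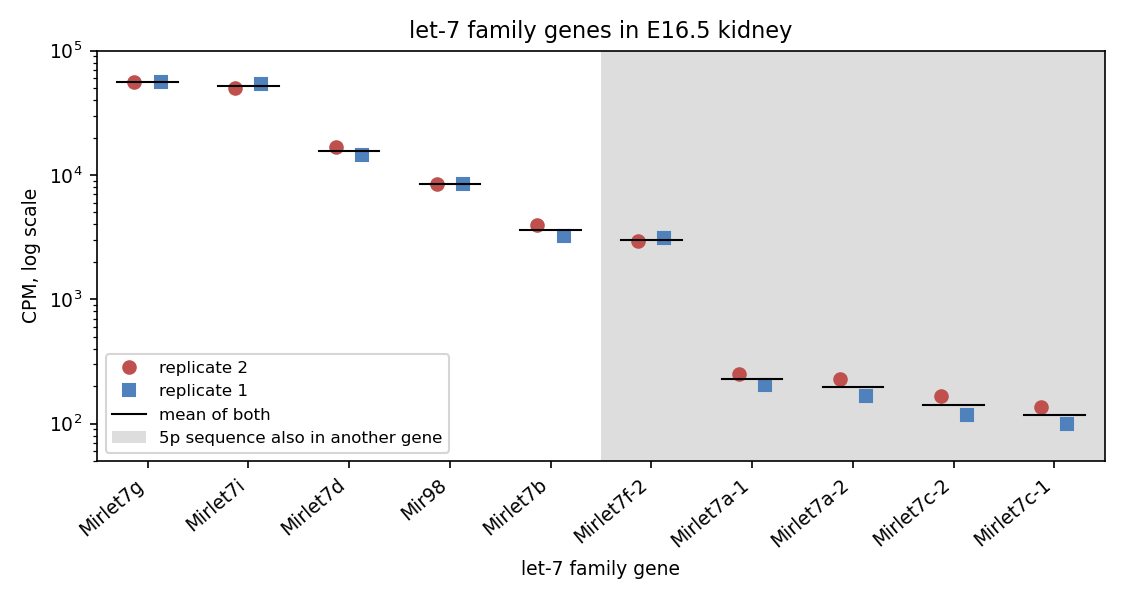
CPM (log scale) of the 10 let-7 family genes in each library, ordered by mean, with replicate 2 as circles, replicate 1 as squares and the mean of both as a bar. The grey field marks the 5 genes whose 5p sequence also occurs in another gene, which run between 99.3 and 3085 CPM, below the 3208 CPM that is the lowest value of the other 5.

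The order of mean log2(CPM + 1) was set against the spread between libraries. The pooled replicate SD was 0.22 on the log2 scale over the 181 genes whose mean reached 100 CPM. From it, the means of 2 genes lie outside the 95% normal range of such a difference from a fold of 1.34 upward. This spread is that of the same gene between libraries. It does not cover effects that shift a gene against another in both libraries alike. Of the 9 pairs of neighbours 5 passed that limit. Mirlet7i stood 3.37-fold above Mirlet7d, Mirlet7d 1.83-fold above Mir98, Mir98 2.37-fold above Mirlet7b, Mirlet7f-2 13.2-fold above Mirlet7a-1, and Mirlet7a-2 1.39-fold above Mirlet7c-2. In the last of these pairs the ranges of the libraries overlapped. The genes of the last 2 pairs all have a shared 5p sequence, so these folds compare only reads placed at 1 copy.

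The other 4 pairs did not differ beyond the spread. Mirlet7g stood 1.07-fold above Mirlet7i, Mirlet7b 1.19-fold above Mirlet7f-2, Mirlet7a-1 1.17-fold above Mirlet7a-2 and Mirlet7c-2 1.21-fold above Mirlet7c-1. The ranges of the libraries overlapped in 3 of the 9 pairs, all among the copies of let-7a and let-7c. From Mirlet7g to Mirlet7c-1 the family spanned 477-fold.

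All 10 genes were detected by this measure, as were 387 of the 1973 rows. The median of their mean levels was 3296 CPM, against 64.2 CPM over the detected rows, and all 10 lay above 64.2 CPM. Split by sequence, the median was 15530 CPM for the 5 genes with a 5p sequence of their own and 197 CPM for the 5 that share it. Among all 352 detected rows with a RefSeq mature entry, 49 genes had an entry of either arm that another gene also has. Their median was 42.6 CPM, against 85.8 CPM for the 303 without. This split uses mature entries only, so it is not the same measure as the 5p split of the family. Mirlet7a-2, which has no 5p entry and a 3p entry of its own, falls among the 303. The genes with a 5p sequence of their own held 97.4% ± 0.0268 of the family's reads in gene rows (SD, n = 2), and those that share it 2.65% ± 0.0268. These medians and shares leave out reads that map to several places, which an identical 5p strand can give. Such reads numbered 3.76 times the family's reads in replicate 2 and 4.48 times in replicate 1, and how many are let-7 is unknown. The SD does not cover this.

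How far the copies can be told apart was read from the hairpins. In the 5 hairpins below, from RefSeq on GRCm38.p6, capitals mark the longest stretch that also occurs in another microRNA precursor.
Mirlet7a-1: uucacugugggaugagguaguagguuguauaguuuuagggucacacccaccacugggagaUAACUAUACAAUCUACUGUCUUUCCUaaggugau
Mirlet7c-2: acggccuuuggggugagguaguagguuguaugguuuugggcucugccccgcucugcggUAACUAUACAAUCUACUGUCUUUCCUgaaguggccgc
Mirlet7a-2: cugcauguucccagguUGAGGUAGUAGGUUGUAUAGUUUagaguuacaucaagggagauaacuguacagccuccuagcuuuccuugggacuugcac
Mirlet7c-1: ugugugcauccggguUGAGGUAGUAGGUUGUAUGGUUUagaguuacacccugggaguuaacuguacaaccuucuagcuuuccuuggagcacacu
Mirlet7f-2: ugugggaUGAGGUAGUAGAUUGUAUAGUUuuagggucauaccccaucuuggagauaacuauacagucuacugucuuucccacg

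Mirlet7a-1 and Mirlet7c-2 share a stretch of 26 nt at the other arm, which holds the whole of their 3p strand, and so each of the 2 genes has both mature sequences in common with another gene. These 2 genes stood at 228 ± 33.5 and 142 ± 35.2 CPM (SD, n = 2). The 2 copies of let-7a share 23 nt and those of let-7c also 23 nt, the 5p strand and 1 base after it, with no shared base before it. Mirlet7a-2 and Mirlet7c-1, whose 3p strands occur in no other RefSeq hairpin, stood at 197 ± 43.7 and 117 ± 25.0 CPM. Mirlet7f-2 and Mirlet7f-1 share the 22 nt of the 5p strand and no base on either side, and Mirlet7f-2 had 3004 ± 114.5 CPM.

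Among the other 5 genes the longest stretch shared with any precursor was 19 nt. It was 19 nt between Mirlet7g and Mirlet7i and between Mirlet7b and Mirlet7c-2, 17 nt for Mir98 and 14 nt for Mirlet7d. A stretch of 18 nt was shared by 8 of the 10 genes, against 50.7% of the 1894 rows with a GENCODE M21 sequence. At 20 nt and at 22 nt 5 of the 10 genes shared one, against 48.7% and 46.0% of the rows. The part of the unplaced reads in the low counts of these 5 genes was not tested.

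**Figure D2:**
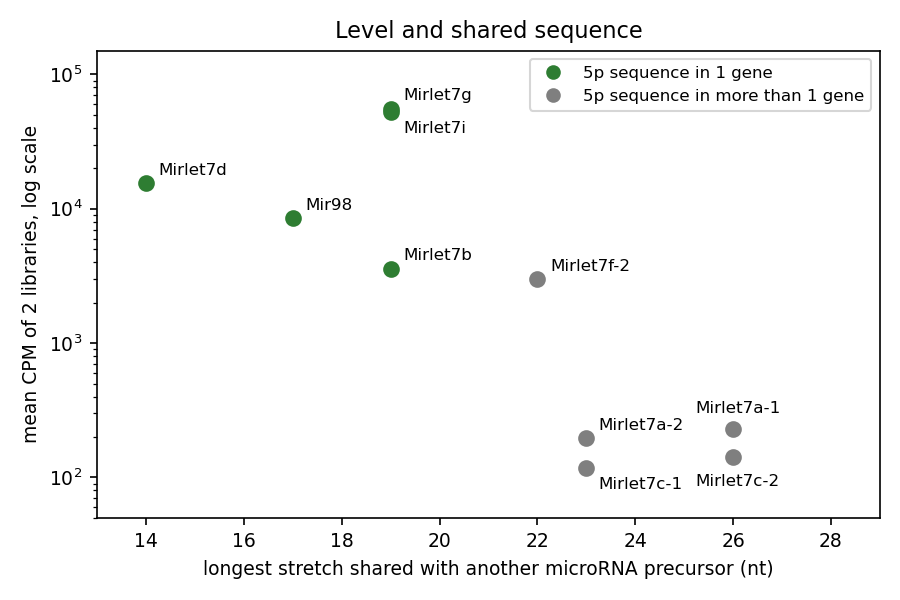
Mean CPM of the 2 libraries (log scale) of each let-7 family gene against the longest stretch, in nt, that its precursor shares with another microRNA precursor. Genes with a 5p sequence of their own (green) share 14 to 19 nt, and those whose 5p sequence is in more than 1 gene (grey) share 22 to 26 nt and reach at most 3004 CPM.

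Of the 10 genes 8 lie in a cluster with 1 other microRNA gene row within 10 kb on the same strand. In each cluster the gene with a shared 5p sequence was the lower of the 2. On chromosome 13, Mirlet7a-1 (ENSMUSG00000065421, chr13:48538179-48538272) and Mirlet7d (ENSMUSG00000065453, chr13:48536012-48536114) lie in exons of the long non-coding RNA 6720427I07Rik, and Mirlet7d stood 66.0-fold above Mirlet7a-1 in replicate 2 and 70.0-fold in replicate 1. Mirlet7f-1 lies between them and has no row here. On chromosome 15, Mirlet7c-2 (ENSMUSG00000065608, chr15:85706603-85706697) and Mirlet7b (ENSMUSG00000065564, chr15:85707319-85707403) lie in exons of the non-coding transcript Lncppara. Mirlet7b stood 23.6-fold above Mirlet7c-2 in replicate 2 and 27.2-fold in replicate 1.

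On chromosome X, Mirlet7f-2 (ENSMUSG00000065602, chrX:151912346-151912428) and Mir98 (ENSMUSG00000065536, chrX:151913214-151913321) lie in introns of Huwe1, which encodes a ubiquitin ligase. Their levels were closest, with Mir98 2.87-fold above Mirlet7f-2 in replicate 2 and 2.76-fold in replicate 1. These folds are ratios of CPM + 1.

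The other 2 clusters join a let-7 gene to a gene of the miR-99 and miR-100 family, whose seeds differ from that of let-7. Mir99a stood at 29819 CPM in replicate 2 and at 30069 CPM in replicate 1, which was 219.8-fold and 299.8-fold above Mirlet7c-1 (ENSMUSG00000065557, chr16:77599657-77599750), 721 bp downstream in an intron of Mir99ahg and across from an intron of Gm11146 on the opposite strand. Mir100 stood at 5232 CPM in replicate 2 and at 5793 CPM in replicate 1, or 22.9-fold and 34.7-fold above Mirlet7a-2 (ENSMUSG00000092770, chr9:41536716-41536811), 5291 bp downstream in introns of the non-coding genes 3110039I08Rik and Gm49317. All 5 cluster folds exceeded 1.34-fold. In all 5, the lower gene is one whose 5p sequence occurs in another gene, so that reads of it may be missing, and how far this moves the folds was not tested. The smallest p that an exact sign-flip test over 2 libraries allows is 0.5.

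**Figure D3:**
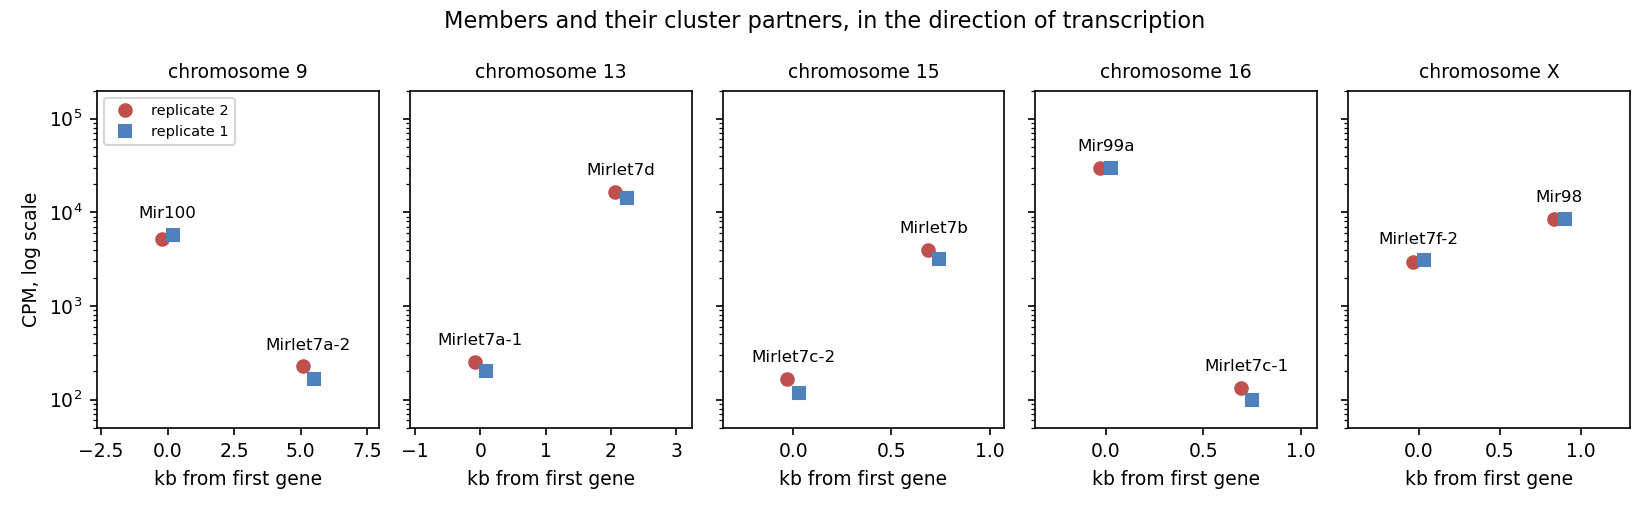
CPM (log scale) of the genes in the 5 clusters with a let-7 family gene, against the distance in kb from the first gene in the direction of transcription, with replicate 2 as circles and replicate 1 as squares, set slightly apart sideways to be seen. Mirlet7a-1, Mirlet7c-2, Mirlet7c-1 and Mirlet7a-2 lie between 99.3 and 252 CPM beside partners of 3208 to 30069 CPM, while Mirlet7f-2 lies within 2.87-fold of Mir98.

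Farther along the same loci lie genes of the miR-125 family, whose fly homologue is known to share a transcript with let-7. Mir125b-1, downstream of Mirlet7a-2, had 344 CPM in replicate 2 and 307 CPM in replicate 1, and Mir125b-2, downstream of Mirlet7c-1, had 266 and 275 CPM. At the chromosome 17 locus, where Mirlet7e was not analysed here, Mir99b stood at 13963 ± 242 CPM and Mir125a at 2767 ± 314 CPM (SD, n = 2). All of these levels leave out reads that map to several places, so they do not rank these microRNAs against each other.

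Beyond the 10 genes, Mirlet7f-1, Mirlet7e, Mir7k and Mir1961 carry the let-7 seed in RefSeq. Of these Mir7k and Mir1961 have rows, and both had 0 reads in replicate 2 and in replicate 1, which allows up to 0.421 and 0.564 CPM. Their mature strands are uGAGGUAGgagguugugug for let-7k, of 19 nt, and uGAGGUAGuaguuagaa for miR-1961, of 17 nt. Mir7j, which RefSeq calls let-7j and which was added after its values were seen, has another seed (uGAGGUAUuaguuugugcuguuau) and stood at 113 CPM in replicate 2 and at 106 CPM in replicate 1. Its strand differs from let-7i-5p only in the last base of the seed and in a longer 3′ end. The part of Mirlet7i reads in the level of Mir7j was not tested.

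The libraries were then compared gene by gene, with TMM scaling, in a two-sided exact binomial test over 455 genes with at least 10 reads summed. This test takes in counting error only and compares these libraries, not conditions. All 10 genes passed an adjusted p of 0.05 (Benjamini-Hochberg), while 33.6% of all genes tested did. Of the 10 genes 6 were higher in replicate 2, against 15.8% of all genes, and 4 were lower, against 17.8%.

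The median absolute log2 ratio was 0.19 over the 10 genes, against 0.13 over the 181 genes whose mean reached 100 CPM, of which 63.5% passed. The edgeR exact test, run with an assumed biological coefficient of variation of 0.2 between pools, called 0 of the 10 genes and 0.659% of all genes. That value was set and not estimated from these libraries, and the calls depend on it. An unadjusted p under 0.05 was reached there by 0 of the 10 genes and by 18 of all 455.

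The members higher in replicate 2 were Mirlet7c-2 (log2 ratio 0.37 ± 0.07, counting SE), Mirlet7a-2 (0.31 ± 0.06), Mirlet7c-1 (0.30 ± 0.08), Mirlet7b (0.16 ± 0.01), Mirlet7a-1 (0.16 ± 0.06) and Mirlet7d (0.07 ± 0.01). Mirlet7a-1 was closest to the threshold, with an adjusted p of 0.0155 in the exact binomial test. Lower were Mirlet7i (-0.26), Mirlet7f-2 (-0.22), Mir98 (-0.17) and Mirlet7g (-0.13), where Mirlet7g had a ratio of 0.0086 with scaling by library totals. That scaling puts the median of all genes at 0.15 rather than 0.01, and the share of passing genes that were higher at 78.8% rather than 47.1%. Within clusters, Mirlet7d and Mirlet7a-1, Mirlet7b and Mirlet7c-2, and Mir98 and Mirlet7f-2 had ratios of one sign, while Mir99a (-0.16) and Mirlet7c-1 (0.30), and Mir100 (-0.29) and Mirlet7a-2 (0.31), had ratios of opposite sign, and these signs were the same with scaling by library totals and by DESeq2 size factors.

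The ratios also separated by the bases at positions 11 and 12 of the 5p strand, a split made after the values were seen. The 6 genes with the let-7a bases at both positions (GG) had ratios from 0.07 to 0.37, and the 4 with another base at either had ratios from -0.26 to -0.13, with Mirlet7g at 0.0086 under scaling by library totals. The split was chosen from these ratios, so that its ranges are a description and no evidence for it. Among the 6 genes, the let-7a and let-7c copies stand at 252 CPM or less and Mirlet7d and Mirlet7b share clusters with copies of them, and the part of level and cluster in this split was not tested.

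**Figure D4:**
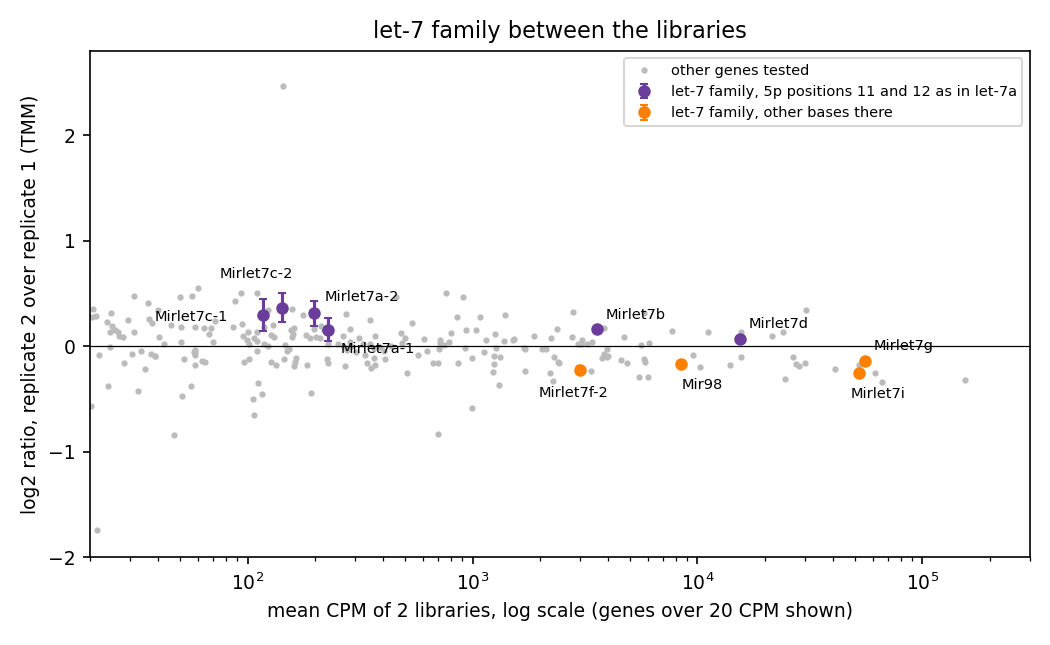
Log2 ratio of replicate 2 over replicate 1 (TMM scaling) against the mean CPM (log scale) for genes over 20 CPM, with let-7 family genes in colour and bars of 95% counting intervals. The 6 genes with the let-7a bases at 5p positions 11 and 12 (purple) lie at 0.07 to 0.37 and the other 4 (orange) at -0.26 to -0.13, with Mirlet7g at 0.0086 under scaling by library totals.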

How the data were processed

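MicroRNA sequencing of RNA fragments under 30 nt, per the labels, gave 1 table per library. Each deposited table lists raw counts per microRNA gene in 3 columns without names, where the first equals the sum of the others, taken as strand of the gene and opposite strand. Per the text files beside the tables, the build was mm10 and the annotation M4. Aligner and counter were not given in the sources used here, and the 4 rows that name no gene, with 51.5% of all reads for replicate 2 and 55.2% for replicate 1, stayed out of library sizes and tests. Symbols came from GENCODE M21 by Ensembl identifier, with 1894 of 1973 rows matched, and mature strands and hairpins from RefSeq on GRCm38.p6.

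Ratios used edgeR 4.0.16 TMM factors of 1.05 for replicate 2 and 0.952 for replicate 1, with DESeq2 1.42.0 size factors as an alternative. The binomial test was run on simulated counts that held counting error only, which cannot show how it behaves under variation between pools. The edgeR quasi-likelihood test needs more than 1 library per side. Genes named are the 10 members, genes with the let-7 seed and genes of the same clusters. A comparison of the hairpin loops is not reported here. Members and lists were chosen with earlier results of these data known. P-values of the binomial test measure only counting error between these libraries.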

Additional observations from a re-analysis of the deposited data

Results flagged for a closer look

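Mirlet7b had reads on the strand opposite to the gene, 25 in replicate 2 and 17 in replicate 1, above the 3 reads that a count of 0 allows. They made up 0.0884% and 0.0995% of the reads at that gene, and the other 9 let-7 family genes had 0 such reads in both libraries. Over all 1973 rows, 78 had such reads, and they summed to 163088 of 7291791 reads on either strand in replicate 2 and to 116411 of 5434080 in replicate 1, a larger share than at Mirlet7b. No control library exists to set this against.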

How the results depend on the processing

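The share of the family was 13.6% with reads on either strand, 6.49% of all reads of the library, 16.5% with Mir10a left out of the total and 13.6% from the 5 genes with a 5p sequence of their own, against 13.9% over both libraries. Mirlet7g turned round with scaling by library totals, at a log2 ratio of 0.0086. The calls between libraries held for all 10 genes with library totals, DESeq2 size factors and no filter on low counts. They held for 0 in the edgeR exact test with an assumed coefficient of variation of 0.2, where 3 of 455 genes passed against 153. Genes with a shared stretch numbered 5 at 20 nt and 5 at 22 nt, against 8. The order of the 10 genes was the same under a pseudocount of 0.5 CPM, which is small beside their levels, and with either strand. The spread does not enter the order. With the spread taken over genes of 1000 CPM or more, 3 pairs of neighbours lay within it instead of 4. The 5 cluster folds moved by less than their replicate SD with a pseudocount of 0.5 CPM and with reads on either strand. Leaving out a library gives the fold of the other one, which ranged from 66.0 to 70.0 for Mirlet7d over Mirlet7a-1 and from 219.8 to 299.8 for Mir99a over Mirlet7c-1, and with 2 libraries this tests nothing. No paired analysis was possible because there is 1 group. Each of the 10 genes had 528 reads or more in both libraries and the unplaced reads leave the levels of the let-7a, let-7c and let-7f copies uncertain. Copies outside microRNA genes were not searched.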
